A study of Mus musculus with 6 samples.

Results

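The immediate early genes described here are Jun, Junb, Fos, Fosb, Egr1, Egr3, Ier2, Atf3, Myc and Dusp1, 10 genes chosen by name from the 22180 genes that were measured in whole mouse liver. Each was read from a row of the array that names this gene alone, and all 10 had such a row, 1 for each gene. The study asked how loss of profilin 2, a small actin-binding protein encoded by Pfn2, alters gene expression in the liver. It compared 3 wild-type and 3 Pfn2-/- livers of strain C57BL/6, untreated, on 6 Affymetrix arrays. In either genotype replicate 1 came from an animal of 9 months, replicate 2 from one of 8.5 months and replicate 3 from one of 8 months. The sources used here do not give how the Pfn2 allele was made, the sex of the animals, their feeding state or the hour of dissection.

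Immediate early genes are switched on within minutes of a stimulus, without new protein synthesis, by factors that already sit on or near their promoters. Growth factor and stress signals reach them through MAP kinases, serum response factor, its Ets partners and the cyclic AMP response factor CREB, and their messages are short lived. In liver they are best known for their rise after partial hepatectomy, injury, feeding and tissue handling. Most of the group encode transcription factors: Jun, Junb, Fos and Fosb pair through leucine zippers to form the factor AP-1, Atf3 is a stress-induced relative, Egr1 and Egr3 are zinc finger factors, and Myc drives growth and ribosome production. Ier2 encodes a nuclear protein of the same early response, and Dusp1 encodes a phosphatase that switches MAP kinases off again.

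Of the 10 immediate early genes, Jun was the single one whose values separated the genotypes, and it was lower in the knockout, though the difference did not pass adjustment over all genes. In each of the other genes the values ranged more widely within either genotype than the group means differed. Myc, Egr1 and Dusp1 spanned 0.85 to 2.48 over the 6 arrays, and the remaining 6 genes 0.36 to 0.64. All values are log2 expression after RMA normalization, and all differences are knockout minus wild type on that log2 scale, from 3 arrays per group, and SE is the standard error that limma gives.

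The wild-type livers had Jun at 6.25, 6.39 and 6.39, and the Pfn2-/- livers had it at 5.54, 5.53 and 6.02. Every knockout array lay below every wild-type array, with 0.23 between the highest knockout and the lowest wild-type value. The wild-type livers were tightly grouped, knockout replicates 1 and 2 were nearly equal, and knockout replicate 3 stood between these and the wild type. The difference was -0.65 (SE 0.15, 95% confidence interval -0.99 to -0.30), which is 1.57-fold lower with an interval of 1.23 to 1.99. Its unadjusted p was 0.00199, and the limma p adjusted by Benjamini-Hochberg over all genes was 0.714; by unadjusted p it ranked 59 among the 22180 genes. With each array left out in turn Jun differed by -0.81 to -0.56, with an unadjusted p of 0.000193 to 0.0108. The largest of these differences was the one without knockout replicate 3.

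Across the group, 1 of 10 genes had an unadjusted p under 0.05, and this was Jun, against 5.29% of all genes tested (2.62% lower and 2.67% higher in the knockout). Jun was also the 1 gene of 10 without overlap between the groups, against 9.85% of all genes, or 4.76% in the lower direction. At an adjusted p under 0.05 limma called 0 of 10, and the share over all genes was 0.0%. With 10 members, these counts are near the background. The median difference over the group was -0.07, against 0 over all genes, with 6 genes below 0 and 4 above. For 6 of the 10 genes the difference was smaller than its own standard error, and for 9 the 95% confidence interval covered 0.

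**Figure D1:**
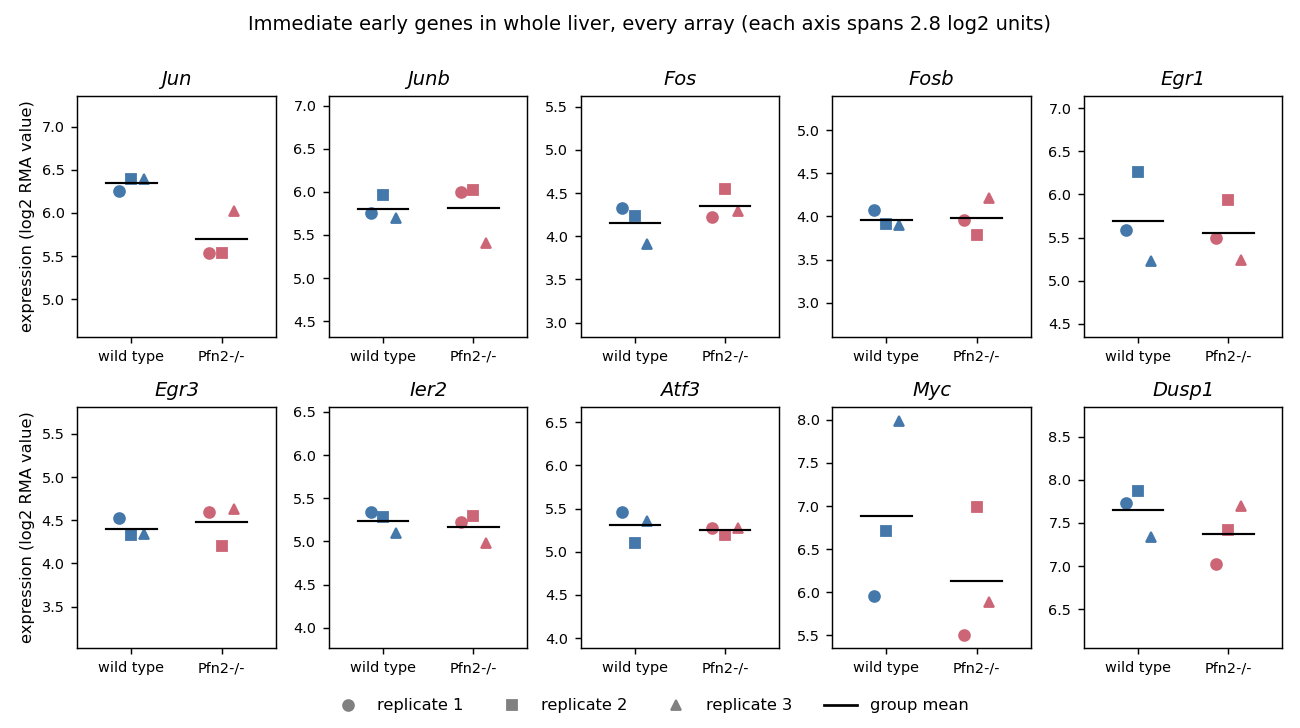
Expression of the 10 immediate early genes in each of the 6 arrays (log2 RMA values; symbols mark replicates 1 to 3, lines the group means; the axes have the same span but different positions). The wild-type arrays had Jun at 6.25 to 6.39 and the Pfn2-/- arrays at 5.53 to 6.02, without overlap, while Myc ran from 5.51 to 7.99 and the other genes overlapped.

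Junb, the nearest relative of Jun in the group, did not share its pattern. It encodes an AP-1 subunit that pairs with Fos proteins as Jun does but is a weaker activator. Junb lay at 5.75, 5.96 and 5.70 in the wild-type livers against 6.00, 6.02 and 5.41 in those of Pfn2-/-. Knockout replicates 1 and 2 were just above all wild-type arrays and knockout replicate 3 was below them all, so the groups overlapped. The difference was 0.01 (SE 0.18, interval -0.39 to 0.40), and without knockout replicate 3 it was 0.21 (unadjusted p = 0.176). Knockout replicate 3 thus held the highest Jun and the lowest Junb of the knockout livers.

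The Fos genes, whose proteins need a Jun partner to bind DNA, were below the median gene in every liver. Fos had 4.33, 4.23 and 3.91 in the wild-type livers against 4.22, 4.55 and 4.29 in those of Pfn2-/-, which differ by 0.20 (SE 0.15, interval -0.14 to 0.54). Fosb had 4.07, 3.91 and 3.90 in the wild-type livers against 3.96, 3.79 and 4.21 in those of Pfn2-/-, which differ by 0.03 (SE 0.14, interval -0.29 to 0.34). The groups overlapped for both genes, and the highest value of each was in a knockout liver. Ranked among all gene means, the Fos row was at percentile 38.1 and the Fosb row at percentile 30.1, below the median of 4.72. Egr3 was the third gene of the group below that median.

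The promoters of these AP-1 genes are printed because Jun, Junb and Fos belong to the same early response, while the values of Jun alone among them separated the genotypes, and that of Dusp1 because it holds a full cyclic AMP response element. RefSeq windows from 250 bases before the transcription start to 50 after it (GRCm38.p6) were matched by symbol for 6 of the 10 genes: Jun, Junb, Fos, Fosb, Atf3 and Dusp1. The Jun window is chr4:95052173-95052472 and the Junb window chr8:84978699-84978998, both on the minus strand, the Fos window is chr12:85473640-85473939 on the plus strand, and the Dusp1 window is chr17:26508423-26508722 on the minus strand. They are written 5′ to 3′ along the gene, with matches to the searched motifs in capitals.
Jun: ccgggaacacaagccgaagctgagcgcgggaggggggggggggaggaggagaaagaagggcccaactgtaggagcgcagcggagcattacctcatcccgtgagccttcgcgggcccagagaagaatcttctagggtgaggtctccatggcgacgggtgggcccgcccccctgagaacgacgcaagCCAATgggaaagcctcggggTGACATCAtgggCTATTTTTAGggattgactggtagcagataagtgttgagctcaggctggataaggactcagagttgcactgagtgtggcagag
Junb: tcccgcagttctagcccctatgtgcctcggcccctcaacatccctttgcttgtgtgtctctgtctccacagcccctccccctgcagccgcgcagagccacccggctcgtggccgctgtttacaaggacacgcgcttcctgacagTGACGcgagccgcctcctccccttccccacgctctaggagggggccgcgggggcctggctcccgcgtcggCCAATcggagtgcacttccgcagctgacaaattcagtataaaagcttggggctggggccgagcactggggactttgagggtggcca
Fos: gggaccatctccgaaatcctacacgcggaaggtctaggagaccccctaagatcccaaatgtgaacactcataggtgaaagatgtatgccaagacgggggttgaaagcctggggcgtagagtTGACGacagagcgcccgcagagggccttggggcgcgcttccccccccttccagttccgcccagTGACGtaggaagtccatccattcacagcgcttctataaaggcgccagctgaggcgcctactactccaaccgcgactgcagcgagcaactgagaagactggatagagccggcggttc
Dusp1: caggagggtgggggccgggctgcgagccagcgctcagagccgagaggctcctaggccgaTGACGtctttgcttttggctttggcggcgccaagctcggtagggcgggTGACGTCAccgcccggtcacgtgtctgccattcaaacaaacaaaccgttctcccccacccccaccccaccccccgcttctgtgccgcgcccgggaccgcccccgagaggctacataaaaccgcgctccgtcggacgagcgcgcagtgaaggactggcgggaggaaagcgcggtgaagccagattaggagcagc
The motifs were searched on both strands, and a match describes letters only. A link between these motifs and the differences between genotypes was not tested. The Jun window held the octamer TGACATCA, an AP-1-like element known from the Jun promoter, 45 bases before the start (position -45), which 3.62% of all 32851 windows held on either strand. A MEF2 site, which 0.557% of windows held, was at -33 in Jun and at -22 in Atf3. A CCAAT box, found in 37.4% of windows, was at -65 in Jun, at -36 in Junb and, in reverse orientation, at 6 in Atf3. The windows of Junb, Fos, Fosb, Atf3 and Dusp1 held the cyclic AMP response half-site TGACG, which was found in 20.8% of all windows and not in that of Jun. The half-site lay at -106 in Junb, at -129 and -66 in Fos and at -60 in Fosb, and in Atf3 it lay at -7 in reverse orientation. In Dusp1 it lay at -191, apart from the full element. The full element TGACGTCA, which contains the half-site on either strand, was in the Dusp1 window at -143 and in 1.79% of all windows. None of the 6 windows held the AP-1 site TGANTCA (7.81% of all windows) or a CArG box, to which serum response factor binds (1.63%). Sites more than 250 bases before the start lie outside the windows and were not searched. Egr1, Egr3, Ier2 and Myc had no window. Whether these promoters hold such sites elsewhere is therefore not known from this search.

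Myc had the largest difference of the group and the largest spread. The wild-type livers had Myc at 5.96, 6.71 and 7.99, and the knockout livers at 5.51, 6.99 and 5.89. Wild-type replicate 3 was highest by 1.00 over the next array, and knockout replicate 2 was above wild-type replicates 1 and 2. The difference was -0.76 (SE 0.49, interval -1.85 to 0.33, unadjusted p = 0.153, limma adjusted p = 0.954). It rested on single livers: without wild-type replicate 3 it was -0.20, without wild-type replicate 1 it was -1.22 (unadjusted p = 0.0268), and without knockout replicate 2 it was -1.19 (unadjusted p = 0.0333). Wild-type replicate 3 also had the fatty acid synthase gene Fasn at 11.84 against 9.12 to 10.17 in the other 5 arrays, and the part of this liver's state in the Myc value was not tested.

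Egr1, a zinc finger factor induced through serum response factor, had the same order of replicates in either genotype. It had 5.59, 6.26 and 5.23 in the wild-type livers against 5.50, 5.93 and 5.24 in those of Pfn2-/-. Replicate 2 was highest and replicate 3 lowest each time, and the groups overlapped almost entirely. The difference of -0.14 (SE 0.26, interval -0.71 to 0.44) was smaller than its standard error, and without wild-type replicate 2 it was 0.15. Its relative Egr3 was dim and narrow, at 4.53, 4.33 and 4.34 in the wild-type livers against 4.60, 4.20 and 4.63 in those of Pfn2-/- (0.08, SE 0.15, interval -0.25 to 0.41).

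Dusp1, whose product removes the activating phosphates from p38, JNK and ERK kinases, had a row at percentile 88.7 of all gene means. It lay at 7.73, 7.87 and 7.34 in the wild-type livers against 7.02, 7.42 and 7.69 in those of Pfn2-/-. Knockout replicate 1 was lowest, knockout replicates 2 and 3 were within the wild-type range, and the groups overlapped. The difference was -0.27 (SE 0.20, interval -0.71 to 0.17, limma adjusted p = 0.956), and it was -0.09 without knockout replicate 1.

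Ier2 and Atf3 were the steadiest members. Ier2 had 5.34, 5.28 and 5.10 in the wild-type livers against 5.22, 5.29 and 4.98 in those of Pfn2-/- (-0.08, SE 0.13, interval -0.38 to 0.22). Atf3, which cellular stress and tissue injury induce, had 5.46, 5.10 and 5.36 in the wild-type livers against 5.28, 5.19 and 5.27 in those of Pfn2-/- (-0.06, SE 0.13, interval -0.35 to 0.23). All 3 knockout values of Atf3 lay within the wild-type range. Neither interval reaches beyond -0.38 or 0.23.

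**Figure D2:**
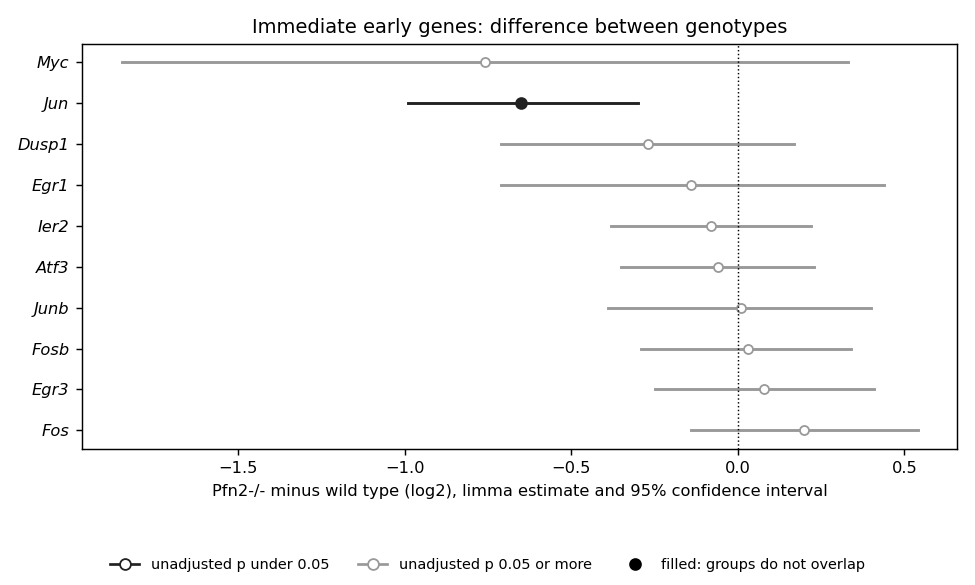
Difference between Pfn2-/- and wild type for each immediate early gene (x axis, log2; points are limma estimates and bars 95% confidence intervals, 3 arrays per group). The interval of Jun, -0.99 to -0.30, lies below 0 and those of the other 9 genes cover it, that of Myc being the widest.

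The spread between animals of one genotype was large for part of the group. The residual standard deviation (SD), which pools the spread within the wild type and within the knockout, was 0.91 for Myc, at percentile 99.8 of all genes. It was 0.44 for Egr1 (percentile 97.3), 0.31 for Dusp1 (89.8) and 0.26 for Junb (82.6), while Jun, at 0.21, was at percentile 65.3. Ier2 and Atf3 were at percentiles 35.7 and 31.1. The median over the group was 0.20 against 0.172 over all genes, and 7 of 10 members lay above the latter. Among the 200 genes nearest in mean expression, all had a smaller residual SD than Myc, and Egr1 was at percentile 96.0. No array was high or low in all members: wild-type replicate 2 had the highest value of 3 genes, knockout replicate 1 that of 0, and the others that of 2 each, a tie for Jun being counted for both arrays.

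**Figure D3:**
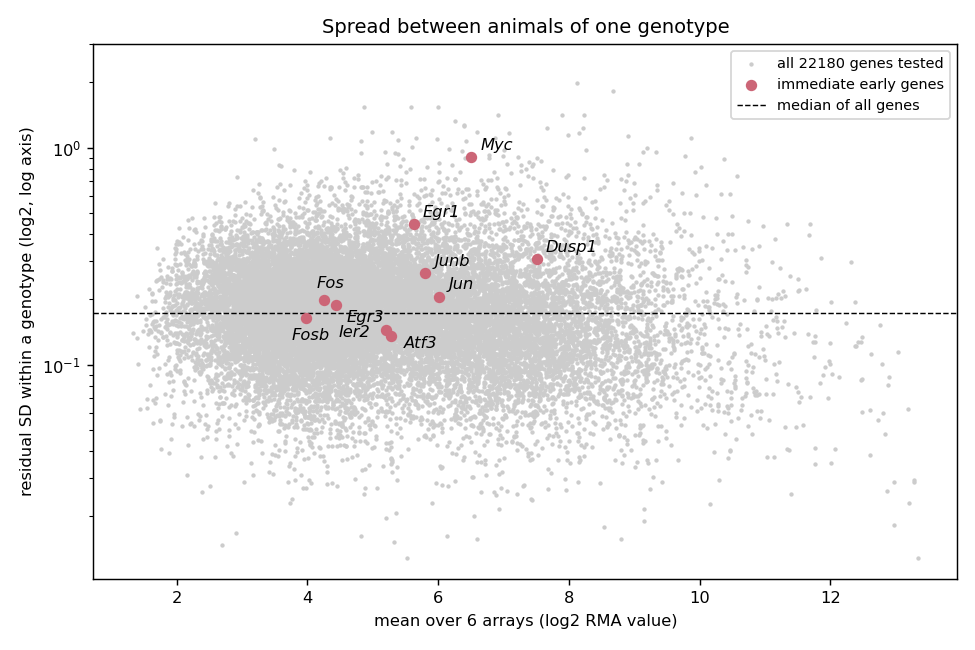
Residual SD within a genotype (y axis, log2 units on a log axis) against the mean over the 6 arrays (x axis, log2 RMA value) for all 22180 genes tested (grey) and the 10 immediate early genes (red). Myc and Egr1 lie near the top of the cloud, at 0.91 and 0.44, and Ier2, Atf3 and Fosb below the dashed median of 0.172.

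A list of 43 further genes known as immediate early or rapid response genes was read in the same way, of which 42 were measured. Of these, 6 were lower and 1 was higher in the knockout at an unadjusted p under 0.05, which is 16.7% against 5.29% of all genes, and 0 passed the adjusted threshold of limma in either direction. By sign alone 28 were lower, 13 higher and 1 at 0, with a median of -0.08. The count depended on single livers: it was 4 without knockout replicate 1 and 12, with 9 lower, without knockout replicate 3. The shares of all genes in these fits were 4.37% and 5.84%. The list was drawn up with earlier results of these data known, some of them on its own genes, so its count is a description.

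Plk3, a polo-like kinase of the stress response, had the smallest p of that list. It lay at 8.10, 8.96 and 8.34 in the wild-type livers against 7.25, 7.43 and 7.65 in those of Pfn2-/-, without overlap, a difference of -1.02 (SE 0.21, unadjusted p = 0.000742, limma adjusted p = 0.621). The antiproliferative gene Btg2 had 6.67, 6.75 and 5.78 in the wild-type livers against 5.29, 5.85 and 5.44 in those of Pfn2-/- (-0.87, SE 0.25). Wild-type replicate 3 was the low array of its group, and the genotypes overlapped. Cebpb, a leucine zipper factor of the acute-phase and regeneration response, had 7.08, 6.96 and 7.19 against 6.75, 6.33 and 6.79 (-0.45, SE 0.15), and the stress gene Gadd45b had 5.48, 5.39 and 5.26 against 4.85, 4.96 and 5.19 (-0.38, SE 0.13). Neither overlapped between genotypes. Ccn1 and Ccn2, matricellular proteins that are textbook targets of serum response factor, lay on opposite sides, at 0.68 (SE 0.15) for Ccn1 and -1.01 (SE 0.35) for Ccn2. Ccn2 overlapped, since wild-type replicate 3 was at 5.75 and knockout replicate 2 at 6.13. The seventh gene, named after its values were seen, was the kinase gene Sik1 (-0.53, SE 0.22).

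**Figure D4:**
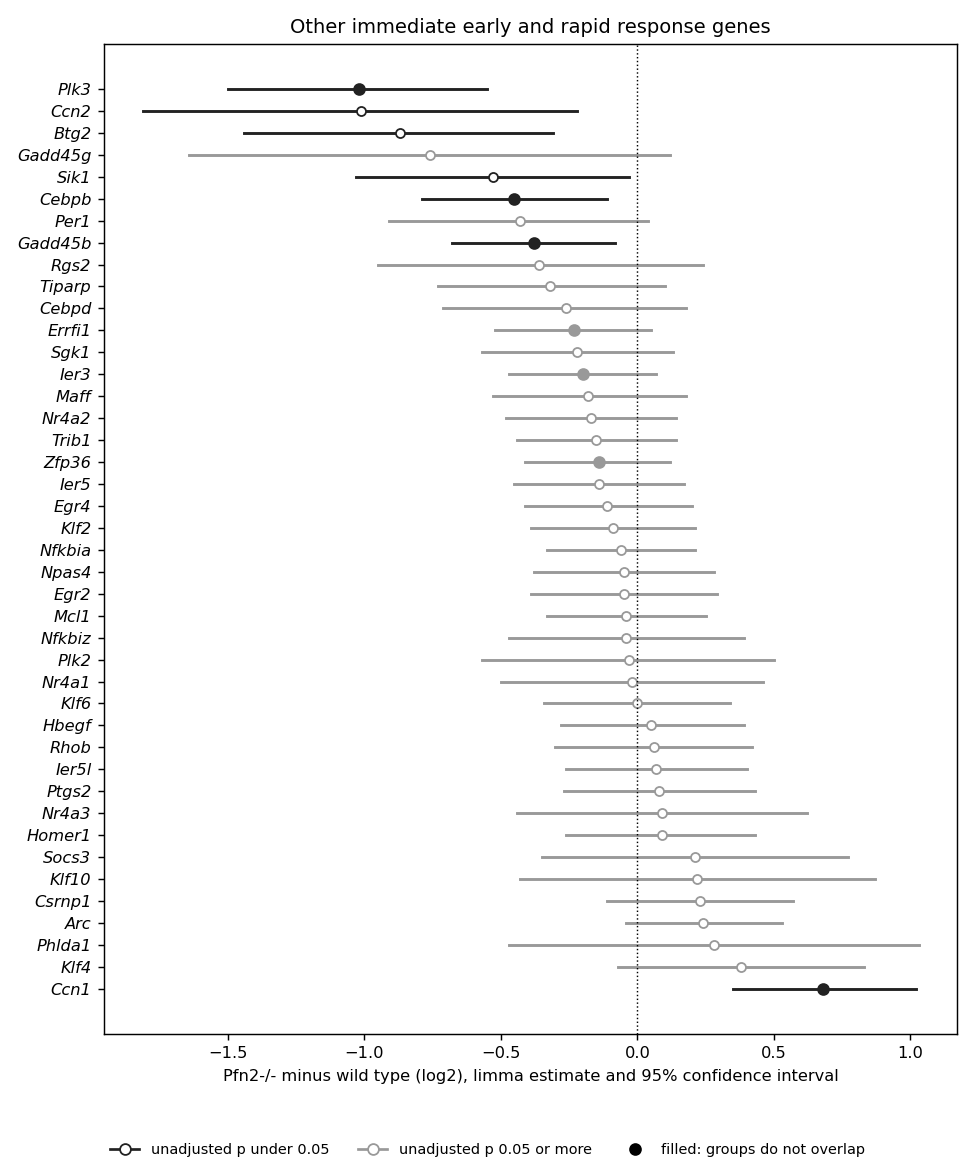
Difference between Pfn2-/- and wild type for the 42 measured genes of the wider immediate early list (x axis, log2; points are limma estimates and bars 95% confidence intervals, 3 arrays per group; dark marks have an unadjusted p under 0.05). Plk3, Ccn2, Btg2, Sik1, Cebpb and Gadd45b are the dark marks below 0, from -1.02 to -0.38, and Ccn1 at 0.68 is the dark mark above it.

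Among the leucine zipper partners and relatives of Fos and Jun, 18 of 21 listed genes were measured, of which 2 were lower and 0 higher at an unadjusted p under 0.05 (limma adjusted 0). This is 11.1% of them, against 5.29% of all genes. One was Cebpb, and the other was Jdp2, a repressor that binds AP-1 sites with Jun. Jdp2 lay at 5.37, 5.07 and 4.93 in the wild-type livers against 4.62, 4.65 and 4.52 in those of Pfn2-/-, without overlap (-0.53, SE 0.14, unadjusted p = 0.004, limma adjusted p = 0.766). The third Jun gene, Jund, differed by 0.07 (SE 0.14), and the Fos relative Fosl2 by -0.09 (SE 0.12), both given for their kinship to the members. The list's median was -0.02.

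Of the kinases and factors upstream of these promoters, 24 of 31 had a row, and 1 of these, or 4.17% against 5.29% of all genes, reached an unadjusted p under 0.05. This was Mapk14, which encodes p38 alpha, at 7.48, 7.52 and 7.40 in the wild-type livers against 7.06, 7.13 and 7.14 in those of Pfn2-/-, a narrow pair of groups without overlap (-0.36, SE 0.11, limma adjusted p = 0.838). Map2k3 (-0.26, SE 0.13) and Map2k4 (-0.17, SE 0.12), kinases of the p38 and JNK branches, were the other two genes whose groups did not overlap, and both were named after their values were seen. These 3 of 24 genes without overlap stand beside 9.85% of all genes, so neither count is far from the background. Srf itself differed by 0.04 (SE 0.13), its actin-regulated coactivators Mrtfa and Mrtfb by -0.02 (SE 0.17) and -0.03 (SE 0.13), and Creb1 by 0.05 (SE 0.14).

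The families of the other members gave 0 genes at an unadjusted p under 0.05 by limma, against 5.29% of all genes, and 0 adjusted. These were 12 Dusp genes (median 0.01), 11 genes of the Myc network (0.02) and 5 of the Egr family and its corepressors (-0.05). For lists this short, a count of 0 is near the background. Dusp6, an ERK phosphatase, differed by -0.39 (SE 0.20) and Dusp3 by -0.23 (SE 0.14). The Myc network list was led by Mlxip at -0.27 (SE 0.18) and Mlx at -0.12 (SE 0.13), and the Egr list by Egr4 at -0.11 (SE 0.14) and the corepressor gene Nab2 at 0.19 (SE 0.25). Of genes known as targets, 0 of 14 Myc targets and 0 of 16 targets of AP-1 or Egr1 had an unadjusted p under 0.05, also near the background, with medians of -0.12 and -0.08. Other settings gave 0 to 3 and 0 to 2: without knockout replicate 3 the Myc targets Nop56 (-0.64), Nop58 (-0.59) and Polr1b (-0.41) were below that unadjusted threshold, each lower, and without wild-type replicate 1 Tfrc was (-0.60). Without wild-type replicate 3 Plau of the second list (-0.51) and Gclm (0.33) were too. With all arrays kept, Gclm (0.27) was below it after median centring, the filter at the median, eBayes trend or array weights. So was Polr1b (-0.32) with array weights or a replicate block, and Nop56 (-0.38) with the mean of a gene's rows. In the main fit Polr1b, a subunit of RNA polymerase I, had the smallest p of the Myc targets (-0.32, SE 0.14) and Rrs1 the next (-0.19, SE 0.12). Gclm, of glutathione synthesis, led the targets of AP-1 or Egr1 (0.27, SE 0.12), before the chemokine gene Ccl2 (0.23, SE 0.15).

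The state of the livers is given beside these values as far as the arrays show it. Heat shock genes averaged 6.77 to 7.66 in the knockout and 6.79 to 6.96 in wild type, the highest in knockout replicate 3. Hspa1b had 8.65 there against 5.51 to 6.38 in the other arrays, and Hspa1a had 5.25 against 3.24 to 3.76. The acute-phase genes averaged 7.89 to 9.46 in the knockout and 7.90 to 7.98 in wild type, again highest in knockout replicate 3. At an unadjusted p under 0.05 there were 1 of 10 heat shock genes, Hsp90aa1 (0.40, SE 0.12), and 3 of 11 acute-phase genes, Saa2 (2.90, SE 0.96), Saa3 (1.16, SE 0.32) and Lcn2 (1.11, SE 0.46), all higher, against 2.67% of all genes in that direction. Saa2 and Lcn2 overlapped between the groups, since knockout replicate 2 had them at 7.31 and 6.81, within the wild-type ranges of 6.76 to 7.80 and 6.65 to 7.07. Lcn2 differed by 0.54 without knockout replicate 3 and by 1.71 without knockout replicate 2. Knockout replicate 3 was also the knockout liver with the highest Jun, and Jun differed by -0.81 without it. Knockout replicate 1 was above the wild type in these acute-phase genes too, with Saa2 at 10.83 and Lcn2 at 8.06, and it had Jun at 5.54. The part of the acute-phase state in the Jun values was not tested. Hepatocyte markers averaged 11.06 to 11.27 in wild type and 11.02 to 11.11 in the knockout, with Alb, a defining marker, at 12.93 to 13.00 in all arrays. Of these 10 markers 8 were lower by sign, and 3 had groups without overlap, against 9.85% of all genes. Ass1 and Alb were lower, with gaps of 0.02 and 0.01 between the groups, and Apob was higher, with a gap of 0.02. An unadjusted p under 0.05 was reached by 1 marker, against 5.29% of all genes. This was the urea cycle gene Ass1, at 6.26 to 6.96 in wild-type and 5.97 to 6.24 in knockout livers (-0.49, SE 0.18). In whole liver, fewer cells of a type and less RNA per cell cannot be told apart.

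Markers of the other liver cells overlapped between genotypes in their mean level, except those of bile duct cells. Kupffer cell markers averaged 7.20 to 7.89 in wild type and 7.34 to 7.44 in the knockout (0 of 10 at an unadjusted p under 0.05, C1qa at -0.26 and Clec4f at -0.18 having the smallest p). Endothelial markers averaged 7.81 to 8.19 and 7.74 to 7.98 (1 of 9, Oit3, -0.32, SE 0.14), and stellate cell markers 6.77 to 7.08 and 6.79 to 6.91 (1 of 9, Col3a1, -0.30, SE 0.13). Lymphocyte markers averaged 4.27 to 4.92 and 4.32 to 4.51 (0 of 9, led by Cd79a at -0.39 and Gzma at -0.54), neutrophil markers 3.95 to 4.08 and 3.99 to 4.15 (0 of 7, led by S100a8 at 0.31 and Cxcr2 at 0.20), and erythroid markers 4.18 to 4.58 and 4.17 to 4.53 (0 of 2, Slc4a1 at 0.21 and Epb42 at -0.14, with 4 not measured). The 5 bile duct markers averaged 4.39 to 4.42 in wild type and 4.55 to 4.65 in the knockout. Sox9 (0.58, SE 0.20) and the dim Cftr (0.33, SE 0.13) were higher at an unadjusted p under 0.05. The differences of Krt19 (0.05), Krt7 (0.02) and Epcam (-0.10) were smaller than their standard errors, so the separated mean rested on Sox9 and Cftr. The list's median was 0.05, and 4 of the 5 rows lay below the median of all gene means. The share of all genes under that unadjusted threshold was 5.29%. The part of these cells in the Jun values was not tested. The row of Pfn2, dim in all arrays, lay at 4.02, 3.85 and 4.09 in the wild-type livers against 3.88, 3.81 and 3.93 in those of Pfn2-/-, and does not separate the genotypes. The arrays have no read depth, and their number limits the precision of every value.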

How the data were processed

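Total RNA of 6 snap-frozen livers, extracted with Trizol per the labels' protocols, was hybridised to Affymetrix arrays, 3 per genotype. The table deposited by the authors holds log2 values of 34390 rows. The submitters' processing notes name RMA and limma, while the sources used here give no version or genome build. RMA subtracts background and quantile normalizes, so a shift common to all genes is lost and differences of dim rows shrink.

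Rows with exactly 1 gene symbol in the platform annotation (23521; 1814 had several and 9055 none) were used. Per gene the row of highest mean over all arrays was kept, leaving 22180 genes. Knockout and wild type were compared in R 4.3.3 by limma 3.58.1 (lmFit, eBayes, two-sided, genotype as sole term, 5.71 prior degrees of freedom), with Benjamini-Hochberg adjustment over all genes and a threshold of 0.05. The fit was tested on simulated data. The members and lists were chosen with earlier results of these data known. From each other list the text names the genes with unadjusted p under 0.05, at most 6 by smallest p, or the 2 of smallest p where none was. Outside this rule it names Jund, Fosl2, Srf, Mrtfa, Mrtfb, Creb1, Alb, Fasn and Pfn2 as context. Krt19, Krt7 and Epcam complete the bile duct list. Named after their values were seen are Sik1, Map2k3, Map2k4, Apob, Gadd45g, Nr4a1, Klf4, Klf6, Nr4a3, Rgs2, Hspa1a, Hspa1b and the genes given for other settings. Alternatives were other normalizations, filters on dim genes, choices of rows, eBayes options, array weights, a replicate block, and fits without each array.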

Additional observations from a re-analysis of the deposited data

How the results depend on the processing

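Jun kept its direction under all 17 alternatives, at -0.81 to -0.56, with an unadjusted p of at most 0.0108, and did not pass the adjusted threshold under any (adjusted p 0.356 to 0.999). No member passed it under any alternative. With each array left out in turn, 1 to 2 members had an unadjusted p under 0.05, against 4.02% to 7.03% of all genes. Myc stood beside Jun without wild-type replicate 1 (4.08% of all genes) or knockout replicate 2 (6.57%). The groups did not overlap in 1 to 3 members. Jun was among them each time, with Atf3 without wild-type replicate 2 and with Dusp1 without wild-type replicate 3. Egr3 and Myc joined Jun without knockout replicate 2, and Junb did without knockout replicate 3. Fewer arrays leave more genes without overlap. The share of all genes without overlap is not given for these fits, so whether these counts exceed the background was not tested. The further immediate early genes with an unadjusted p under 0.05 numbered 4 to 12, and the cause of that shift was not tested. In the fit with 4 such genes the share of all genes was 4.37%, and in the fit with 12 it was 5.84%. Small differences turned sign: Fosb to -0.0007 with array weights. Leaving out single arrays gave -0.10 to 0.21 for Junb, -0.09 to 0.12 for Fosb, -0.37 to 0.15 for Egr1, -0.15 to 0.01 for Ier2, -0.16 to 0.02 for Atf3 and -0.10 to 0.50 for Nab2. Their cause was not tested. Without knockout replicate 2 the acute-phase genes Saa2 (4.30, adjusted p = 0.0169) and Orm2 (2.75, adjusted p = 0.00794) passed. The filter at the median leaves out Fos, Fosb and Egr3.

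A fit with a replicate block called 7 of all genes, and none of the members, with Jun at -0.65 (adjusted p = 0.547). With that block the further list had 9 genes at an unadjusted p under 0.05. Array weights called 2 of all genes, and leaving out single arrays 0 to 6, the most without wild-type replicate 3; no other alternative called any. Livers with the same number came from animals of the same age. They correlated at -0.082, 0.155 and 0.02 in their deviations from the group means across genes. The numbers were not taken as pairs in the main fit, and the replicate block gives the values with such pairing. The number of arrays limits what can be called, and no background level was measured, so how far a dim row could fall is not known.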

Other observations

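Gadd45g, a growth arrest and stress gene of the wider list, placed the 6 livers in the same order as Myc, and this was seen only after their values were known. Gadd45g lay at 6.15, 6.42 and 7.33 in the wild-type livers against 5.01, 6.61 and 6.01 in those of Pfn2-/-, so wild-type replicate 3 was highest, knockout replicate 2 next and knockout replicate 1 lowest, as for Myc. Its residual SD of 0.72 was at percentile 99.5 of all genes, and its groups overlapped. Of the 42 measured genes of that list 1 had this order, and of all genes 20 did besides Myc, which is 0.0902%. The order of every other member except Jun, which has a tie, was compared in the same way, and no gene of the list shared it. The match with Myc is thus the only hit of several searches. The orphan receptor gene Nr4a1, a target of the same stimuli as Egr1 and also picked after its values were seen, was highest in replicate 2 of either genotype, at 5.53 and 5.48, as Egr1 was. So were Klf4, Klf6, Nr4a3, Btg2 and Rgs2 of the wider list, and the share of all genes with this peak was not counted. Nr4a1 was lowest in replicate 1 of either genotype, whereas Egr1 was lowest in replicate 3.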
